A study of Cricetiscus sungorus with 16 samples.

Results

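Aromatase and the 17beta-hydroxysteroid dehydrogenases were followed in the ovaries of Siberian hamsters reared in long or short days. They were taken by 9 RefSeq transcript identifiers, which stand for Cyp19a1, Hsd17b1, Hsd17b2, Hsd17b3, Hsd17b4, Hsd17b7, Hsd17b10, Hsd17b11 and Hsd17b12. All 9 were on the array, with 12 of its 41174 probes, among 33272 identifiers in all. The choice went by identifier and not by a measured value, but it was made with earlier results of these data known. The deposited files give identifiers and no gene symbols, so the symbols are those of the list that named the identifiers. Female hamsters lived from gestation on under long days (LD), with 16 h of light, or short days (SD), with 10 h, and were examined at 3 wk or at 8 wk of age. Each of the 4 groups held 4 hamsters with animal codes of their own, and both ovaries of a hamster gave the RNA for 1 single-colour array. For SD at 8 wk the title and the description both name SD, but the hours conflict, with 16 h in the title and treatment fields and 10 h in the description. These hamsters were taken as SD with 10 h. The study's design asks how the day length of rearing and age bear on gene expression in the developing ovary.

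Aromatase (Cyp19a1) is the enzyme that turns androgens into estrogens, and in the ovary of rodents it is known chiefly from the granulosa cells of growing follicles, where follicle-stimulating hormone raises it. The 17beta-hydroxysteroid dehydrogenases interconvert weak and strong sex steroids: some mainly reduce a 17-keto steroid, as when estrone becomes estradiol, and others mainly oxidise the strong hormone back. Several of them also act on cholesterol precursors or fatty acids, so that the family is broader than steroid hormone synthesis.

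The probes were designed for mouse, and how well each binds the hamster transcript was not tested. Levels are log2 intensity relative to the array's 75th percentile, so that 1 unit is a 2-fold difference and a level of 0 is the intensity of that percentile. Levels of different probes are not comparable, and each probe is compared with itself across arrays. The 75th percentile ran from 269 to 1007 intensity units and was lowest on the 4 arrays of slide 1, and 56.6% to 75.6% of probes were well above background. Each of the 4 slides carried 1 array of each group in the same place, so an effect of the place cannot be told apart from the group, while slide could be held constant. Replicates are numbered by slide. Ovaries were measured whole, so fewer cells of a type and less RNA per cell cannot be told apart. The detection filter asked for a signal well above background on every array of 1 or more groups and left 20145 identifiers and 8 of the 9 enzymes, the exception being Hsd17b11. Comparisons share arrays: the 3-wk SD group, for example, enters both the photoperiod difference at 3 wk and the age change in SD.

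Cyp19a1 was lowest in SD ovaries at 3 wk and highest in SD ovaries at 8 wk, with both LD groups between them. In SD it rose 16.3-fold from 3 to 8 wk on the brighter of its 2 probes, whereas in LD the 2 ages overlapped. On the dimmer probe the SD rise was smaller, at 1.56 on the log2 scale. SD lay below LD at 3 wk and above LD at 8 wk on each slide where both were measured, but neither photoperiod difference passed the test across all identifiers.

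On the brighter of the 2 Cyp19a1 probes (A_52_P591961, identifier NM_007810) the LD ovaries at 3 wk had levels of 4.41, 2.73 and 3.25 on slides 2, 3 and 4, the spot on slide 1 being an outlier by the scanner's own criterion. The LD ovaries at 8 wk had 2.68, 2.95, 3.13 and 3.66 on slides 1 to 4. These groups had means of 3.46 ± 0.86 (SD, n = 3) and 3.11 ± 0.42 (SD, n = 4), and they overlapped. The SD ovaries at 3 wk had 2.41, -0.57, 0.51 and 1.67, with a mean of 1.0 ± 1.31 (SD, n = 4). The SD ovaries at 8 wk had 5.33, 4.85, 5.82 and 4.11, with a mean of 5.03 ± 0.73 (SD, n = 4). Every SD array at 3 wk thus lay below every LD array of either age, the nearest pair being 2.41 against 2.68. The highest LD array at 3 wk (4.41) reached above the lowest SD array at 8 wk (4.11), so that these groups overlapped, and the 8-wk groups did not. On this probe the SD ovaries at 3 wk had the largest spread of the groups, with the extremes on slides 1 and 2. In order of mean, the groups ran SD at 3 wk, LD at 8 wk, LD at 3 wk and SD at 8 wk, and the neighbours LD at 8 wk and LD at 3 wk did not differ beyond their spread.

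**Figure D1:**
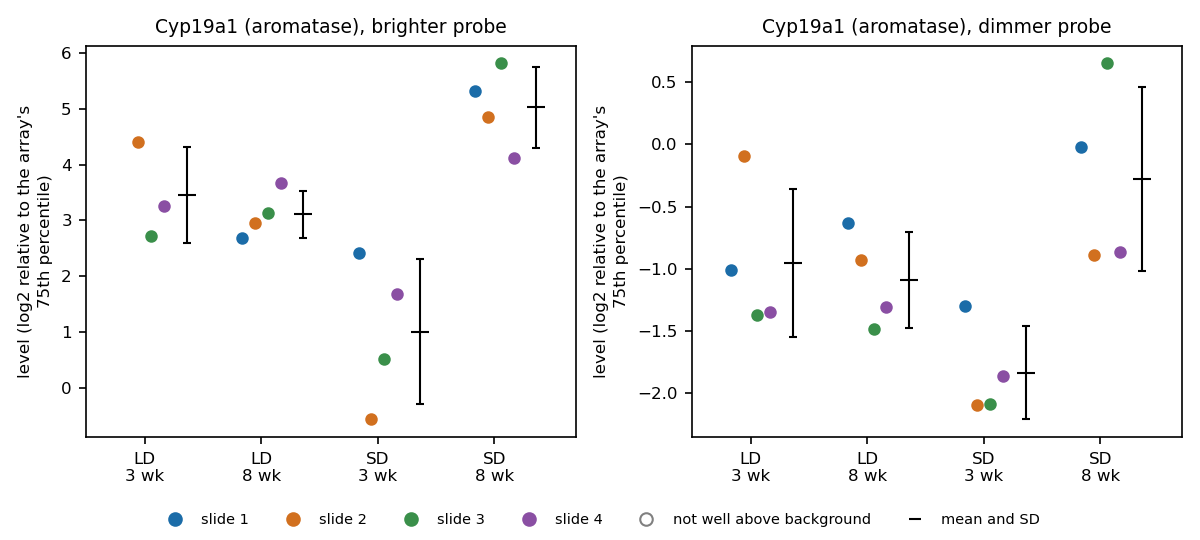
Level of Cyp19a1 (log2 intensity relative to the array's 75th percentile) on each array, by group, for the brighter and the dimmer probe; points are hamsters coloured by slide, and bars are group means with SD. On both probes the SD ovaries at 3 wk have the lowest mean and the SD ovaries at 8 wk the highest.

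The age change of Cyp19a1 in SD was 4.02 on the log2 scale (SE 0.55, 95% interval 2.85 to 5.20; limma adjusted p = 0.00033). On the slides it was 2.92, 5.42, 5.30 and 2.44, positive on 4 of 4, and with slide held constant the limma adjusted p was 0.00087. It was the 15th largest rise among the 20145 identifiers (10 to 151 over the processing alternatives, 151 being on the dimmer probe), of which 9.15% were called in this comparison and 4.77% rose. In LD the age change was -0.35 (SE 0.59, limma adjusted p = 0.926; -0.50 and 0.713 with slide held constant), with slide values of -1.46, 0.41 and 0.42; it turned to 0.12 without LD replicate 2 at 3 wk. The highest 3-wk LD value, that of slide 2, is therefore the array on which the sign of the LD age change rests.

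Between photoperiods at 3 wk, Cyp19a1 on its brighter probe differed by -2.46 (SE 0.59, 95% interval -3.72 to -1.19), a level 5.49-fold lower in SD. This was the most negative of all 20145 differences in the comparison. Over the processing alternatives it ranked between 1 and 34 from the bottom, 34 being on the dimmer probe. Yet its limma adjusted p was 1.0 (unadjusted p = 0.00089). With slide held constant it was -2.60, with a limma adjusted p of 0.747. No identifier was called at 3 wk (0% of those tested by limma, with 330 at an unadjusted p under 0.05; 0% also with slide held constant, with 1263). The slide differences were -4.98, -2.21 and -1.58, lower in SD on 3 of 3. At 8 wk the difference on this probe was 1.92 (SE 0.55, 95% interval 0.75 to 3.09), 3.79-fold higher in SD. Its limma adjusted p was 0.165, or 0.157 with slide held constant. The 8-wk difference was positive on 4 of 4 slides, from 0.45 to 2.68.

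The age change of Cyp19a1 in SD exceeded that in LD by 4.38 (SE 0.81, limma adjusted p = 0.074; 0.107 with slide held constant). It ranked 3 among the positive values of this difference, and between 2 and 56 over the alternatives, 56 being on the dimmer probe. It fell just outside the threshold and passed it in 4 of 31 alternatives: with array weights (adjusted p = 0.0195), with another background correction (0.0450), without SD replicate 1 at 3 wk (0.0303) and without SD replicate 4 at 8 wk (0.0286), within a range of 0.0195 to 0.612. The value without those arrays was 4.84 and 4.68.

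**Figure D2:**
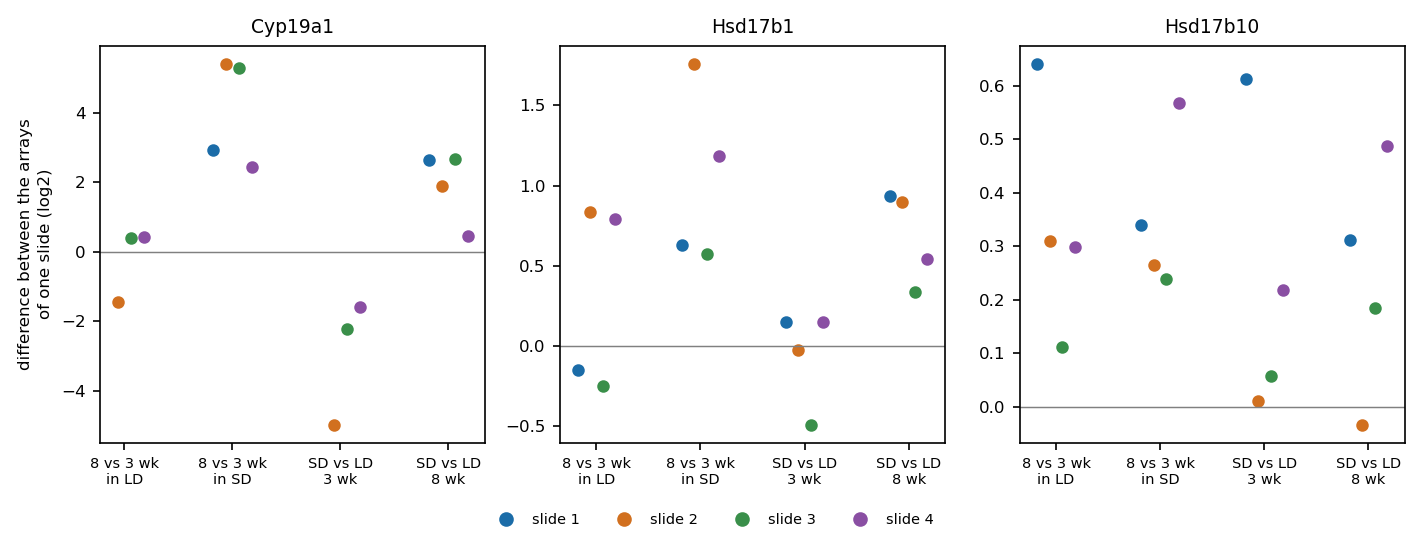
Differences taken within each slide (log2) for Cyp19a1, Hsd17b1 and Hsd17b10, 1 coloured point per slide, in the age and photoperiod comparisons. The SD age change of Cyp19a1 is above 0 on all 4 slides, from 2.44 to 5.42, and its photoperiod difference is below 0 at 3 wk and above 0 at 8 wk on every measured slide.

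The dimmer Cyp19a1 probe (A_51_P474551) was well above background on all 16 arrays and gave the same order of the outer groups with smaller differences. Its levels in SD at 3 wk were -1.30, -2.10, -2.09 and -1.86, and in SD at 8 wk -0.02, -0.89, 0.65 and -0.86, so these groups did not overlap here either. In LD the levels were -1.01, -0.09, -1.37 and -1.35 at 3 wk and -0.63, -0.93, -1.49 and -1.31 at 8 wk, and the ages overlapped. Unlike on the brighter probe, SD and LD overlapped at both ages: the highest SD array at 3 wk (-1.30) lay above LD arrays at -1.37 and -1.35, and the lowest SD arrays at 8 wk (-0.89 and -0.86) lay below the highest LD array (-0.63). The SD of the SD group at 3 wk was 0.376 on this probe, against 0.597 and 0.384 in LD at 3 and 8 wk and 0.742 in SD at 8 wk, so that the large spread of the young SD group was not seen here. Tested on its own, this probe rose by 1.56 with age in SD (SE 0.35, limma adjusted p = 0.0101; 0.0058 with slide held constant), against 4.02 on the brighter probe. Its photoperiod difference was -0.88 at 3 wk and 0.81 at 8 wk (limma adjusted p = 1.0 and 0.601; 0.75 and 0.294 with slide held constant). The SD age change exceeded the LD one by 1.69 (limma adjusted p = 0.647; 0.291 with slide held constant). The size of the SD rise thus depended on the probe, and both probes were called in the same direction. Which probe follows the hamster transcript more closely was not tested.

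Of the enzymes known mainly for reduction, Hsd17b1 was the member that rose. Hsd17b1, the granulosa cell enzyme that reduces estrone to estradiol, was 2.05-fold higher in SD ovaries at 8 wk than at 3 wk. Its probe (A_51_P243435, NM_010475) was dim, with processed intensities from 10.4 to 101, and well above background on 15 of 16 arrays. The SD ovaries at 3 wk had levels of -4.39, -4.70, -4.26 and -4.44 (mean -4.45 ± 0.19 SD, n = 4), and those at 8 wk had -3.76, -2.94, -3.68 and -3.26 (mean -3.41 ± 0.38 SD, n = 4). The LD ovaries had -4.54, -4.68, -3.77 and -4.60 at 3 wk (mean -4.39 ± 0.42 SD, n = 4) and -4.69, -3.84, -4.02 and -3.80 at 8 wk (mean -4.09 ± 0.41 SD, n = 4). The SD arrays at 8 wk lay above every array of the other groups, although the highest LD array at 3 wk (-3.77) and their lowest (-3.76) were nearly level. The other groups overlapped one another. In order of mean, SD at 3 wk, LD at 3 wk and LD at 8 wk came first with neighbours inside their spread, and SD at 8 wk stood highest.

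The SD age change of Hsd17b1 was 1.04 (SE 0.26, 95% interval 0.48 to 1.60; limma adjusted p = 0.0203, or 0.0082 with slide held constant), positive on 4 of 4 slides from 0.58 to 1.76. The call was lost with another background correction, normexp, where the change was 0.48 (limma adjusted p = 0.410). Normexp added 50 intensity units to each spot, beside processed intensities of 10.4 to 101 for this probe. An added constant of that size shrinks log2 changes of a dim probe, so this loss cannot be told apart from the offset. It was also lost without SD replicate 2 at 3 wk (0.95, adjusted p = 0.0710) and without SD replicate 2 or 4 at 8 wk (0.88 and 0.99, adjusted p = 0.0817 and 0.0551), in a range of limma adjusted p from 0.0031 to 0.410 over 31 alternatives. In LD the age change was 0.31 (SE 0.26, limma adjusted p = 0.75; 0.464 with slide held constant). At 8 wk SD exceeded LD by 0.68 (SE 0.26, limma adjusted p = 0.486; 0.201 with slide held constant), on 4 of 4 slides. At 3 wk the difference was -0.05 (limma adjusted p = 1.0; 0.963 with slide held constant), and it turned to 0.15 without LD replicate 3 and to 0.03 without SD replicate 2. The SD age change exceeded the LD one by 0.73 (SE 0.37, limma adjusted p = 1.0; 0.599 with slide held constant), again on 4 of 4 slides, so that a difference between the photoperiods in the age change was not shown.

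**Figure D3:**
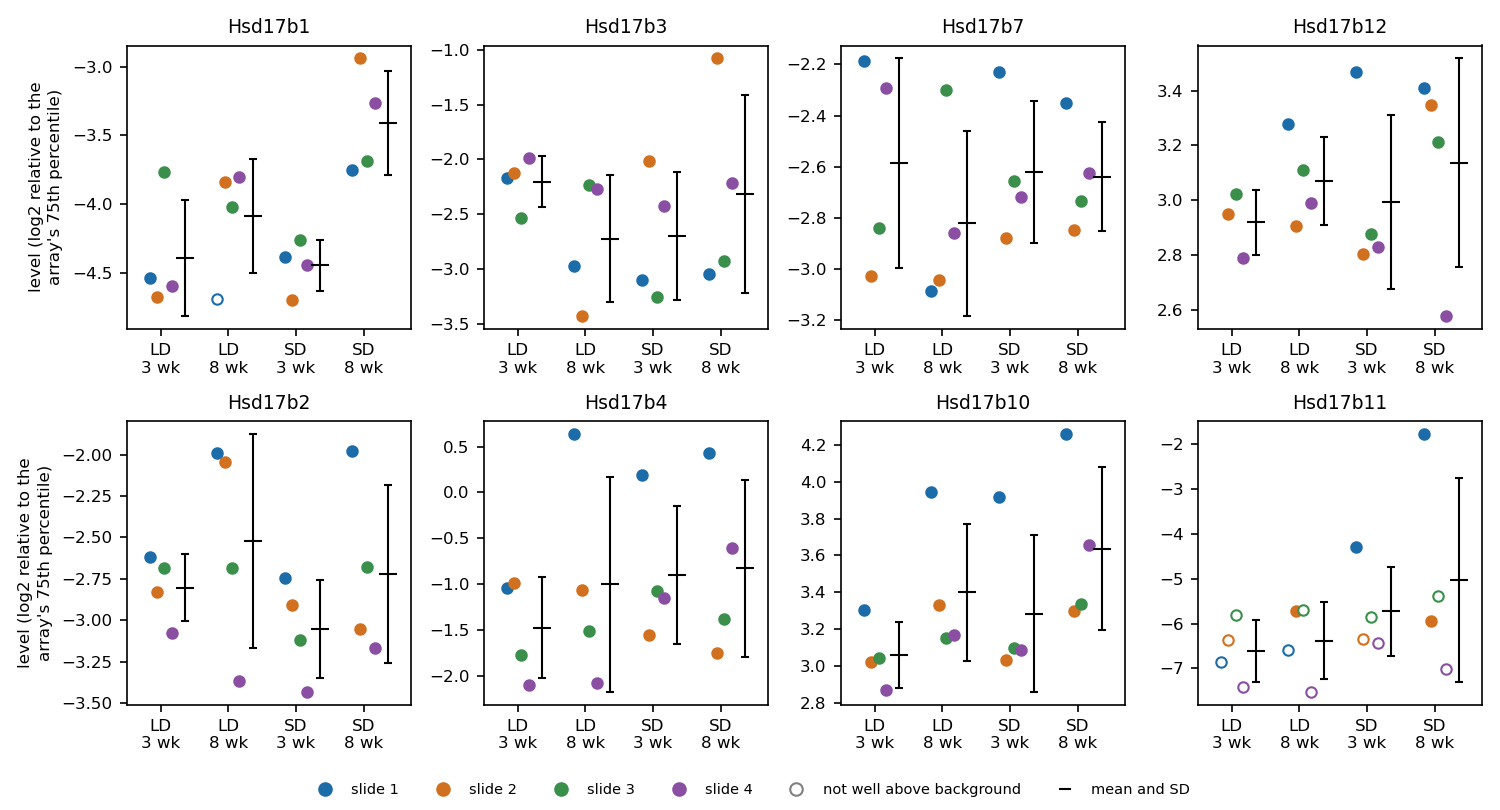
Level (log2 intensity relative to the array's 75th percentile) of the 8 Hsd17b enzymes on each array by group, with group means and SD; colours are slides, and open points were not well above background (Hsd17b11 did not pass the detection filter). Hsd17b1 is highest in SD ovaries at 8 wk, from -3.76 to -2.94, while the groups of Hsd17b3, Hsd17b7, Hsd17b12, Hsd17b2 and Hsd17b4 overlap.

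The other reductive enzymes did not pass the test in any comparison, with or without the slide. Hsd17b3, which makes testosterone from androstenedione and is best known from the testis, ranged from -3.43 to -1.08 (A_51_P275207). Its group means were -2.20 and -2.73 in LD at 3 and 8 wk, and -2.70 and -2.32 in SD. A single SD array at 8 wk, that of slide 2, stood at -1.08 where the others of its group were at or below -2.22. Hsd17b7, which reduces estrone and also works in cholesterol synthesis, stayed between -3.09 and -2.19 (A_51_P250934), with group means from -2.82 to -2.59. Its second probe (A_52_P566605) was well above background on 0 of 16 arrays. Hsd17b12, an enzyme of fatty acid elongation that can also reduce estrone, had a bright probe (A_52_P243599) between 2.58 and 3.47, with group means from 2.92 to 3.14; its spot on LD replicate 1 at 3 wk was an outlier and was not used.

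Among the enzymes known mainly for oxidation, none rose or fell in the test without the slide, and Hsd17b10 passed in SD when slide was held constant. Hsd17b10, a mitochondrial dehydrogenase that oxidises steroids and branched-chain acyl-CoA and is also a subunit of mitochondrial RNase P, was bright on every array (A_51_P366960, NM_016763). Its levels were 3.31, 3.02, 3.04 and 2.87 in LD at 3 wk and 3.95, 3.33, 3.15 and 3.17 in LD at 8 wk. In SD they were 3.92, 3.03, 3.10 and 3.09 at 3 wk and 4.26, 3.30, 3.34 and 3.66 at 8 wk. Slide 1, given first, was highest in every group, and on each slide the 8-wk array lay above the 3-wk array of the same photoperiod. Without the slide the groups of both photoperiods overlapped between ages.

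The age change of Hsd17b10 was 0.35 in SD (SE 0.25, limma adjusted p = 0.508), and 0.34, 0.27, 0.24 and 0.57 on the slides. With slide held constant the SE was 0.12 and the limma adjusted p 0.0483, the only one of 32 alternatives in which it was called; in that fit 22.6% of identifiers were called and 10.7% rose. In LD it was 0.34 (SE 0.25, limma adjusted p = 0.664; 0.0861 with slide held constant), with slide values of 0.64, 0.31, 0.11 and 0.30. The 2 age changes were within 1 SE of each other.

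Hsd17b2, which oxidises estradiol to estrone and testosterone to androstenedione, ranged from -3.43 to -1.98 (A_51_P441914), with group means of -2.80 and -2.52 in LD and -3.05 and -2.72 in SD at 3 and 8 wk. Hsd17b4, a peroxisomal enzyme of fatty acid oxidation that can also oxidise estradiol, ranged from -2.10 to 0.64 (A_51_P445662). Slide 1 was the highest in 3 of its 4 groups. Its group means were -1.47 and -1.0 in LD and -0.90 and -0.83 in SD. Hsd17b11, which oxidises androgens and sits on lipid droplets, could not be followed: each of its 2 probes was well above background on 4 of 16 arrays. On the probe A_51_P132625, 1 SD array at 8 wk (slide 1) read -1.77 where the rest of the group were at or below -5.38.

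For Hsd17b3, Hsd17b7, Hsd17b12, Hsd17b2 and Hsd17b4 the differences ran from -0.50 to 0.58 between photoperiods at 3 wk and from -0.20 to 0.41 at 8 wk. With age they ran from -0.52 to 0.47 in LD and from -0.02 to 0.38 in SD. The 95% interval lay within a 2-fold change either way for 3 of these 5 in each of these comparisons, and for the others a 2-fold change was inside the interval. Their lowest limma adjusted p was 0.659 without the slide and 0.247 with it, both in the SD age change. There the groups of 0 of the 5 were apart, where 8.12% of identifiers were apart and higher at 8 wk. With 5 members, 0 is near that share.

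**Figure D4:**
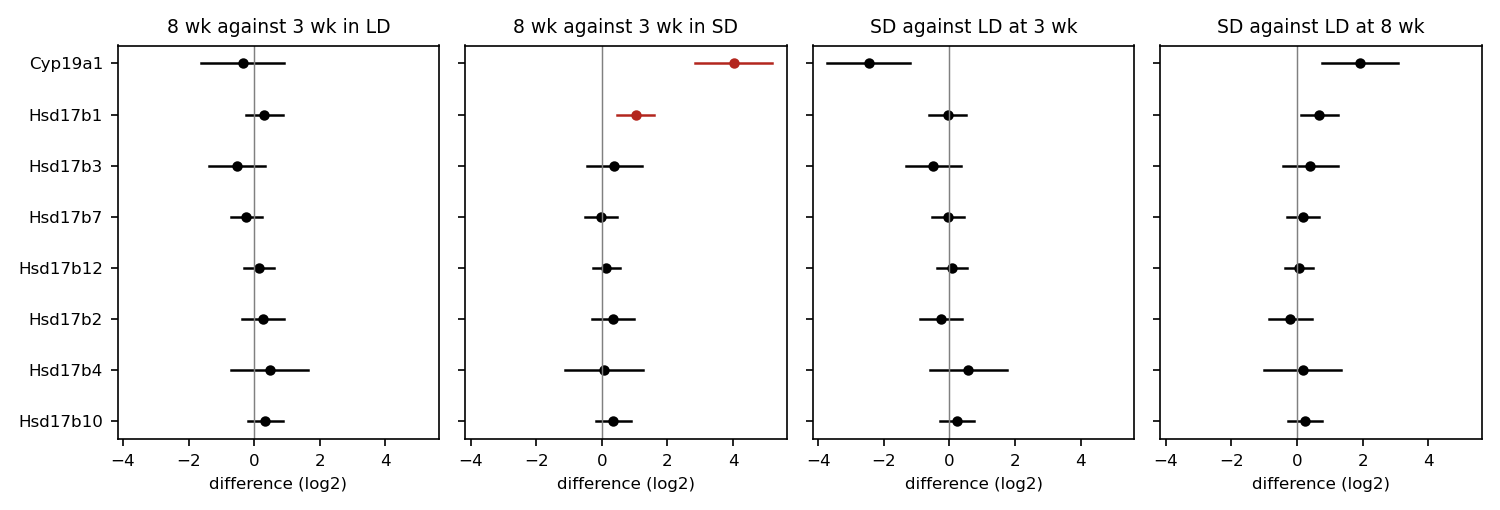
Differences (log2, with 95% intervals) of the 8 enzymes that passed the detection filter in the photoperiod and age comparisons; red marks those past limma's adjusted threshold without the slide. Cyp19a1 and Hsd17b1 passed in the SD age change, at 4.02 and 1.04.

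Counted over the family, 0 members were called between photoperiods at 8 wk (0.958% of identifiers called by limma, 2.55% with slide held constant), 0 in the LD age change (2.98% and 11.5%) and 0 in the difference of the age changes (0.0596% and 0.174%), in either fit. In the limma fit, 2, 0 and 1 of the 8 had an unadjusted p under 0.05 in these, against 1397, 2703 and 614 of the 20145 identifiers. In the SD age change 2 of the 8 were called, both rises, where 9.15% of identifiers were called and 4.77% rose. With slide held constant 3 of the 8 were called there, all rises, where 22.6% of identifiers were called and 10.7% rose. On the probes that stood for them in the fit, groups without overlap were found for Cyp19a1 at 3 wk, lower in SD as 1.33% of identifiers were, and for Cyp19a1 and Hsd17b1 at 8 wk, higher in SD as 2.18% were. Both were also apart in the SD age change, higher at 8 wk as 8.12% of identifiers were, and 0 members were apart between ages in LD (8.71% of identifiers). On the dimmer Cyp19a1 probe the groups were apart in the SD age change and overlapped between photoperiods. The 8-wk groups of Hsd17b1 overlapped when outlier spots were kept. The median difference of the 8 was 0.34 in the SD age change, where that of all identifiers was 0.0012, and 0.22 in the LD age change, where that of all was -0.04. Between photoperiods it was -0.04 at 3 wk and 0.21 at 8 wk, against -0.05 and -0.01 over all identifiers.

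The identifiers whose levels followed Cyp19a1 most closely over the arrays, with slide means removed, were NM_016807 (Pearson r = 0.952 over 14 arrays) and NM_013501 (r = 0.927 over 15). Those most like Hsd17b1 were NM_029714 (r = 0.966) and AK043363 (r = 0.961), both over 16 arrays. These were picked from 20144 others for their likeness, and the correlations are descriptions over arrays that share groups and slides. Group differences were left in the levels used for the picking, and Cyp19a1 and Hsd17b1 rose with age in SD. The SD age changes of the picked identifiers follow in part from that choice and are given without a test. They were 1.11 for NM_029714, 0.58 for AK043363, 0.46 for NM_016807 and 0.53 for NM_013501. Cyp19a1 and Hsd17b1 themselves had an r of 0.62 over 15 arrays, at place 2174 among the identifiers ordered by likeness to Cyp19a1. For Hsd17b1 the member most like it was Hsd17b10, with an r of 0.67, at place 1868 among the identifiers ordered by likeness to Hsd17b1.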

How the data were processed

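Cy3-labelled ovarian RNA of 16 hamsters was hybridised to 16 single-colour mouse arrays of 45018 spots, on 4 slides scanned on 3 days. Per the file headers, the authors read the scans with Agilent Feature Extraction 10.5.1.1. The deposited scanner files hold processed and median intensity values, linear and without normalization between arrays. They also hold flags that mark outlier spots and spots well above background. The authors' deposited value table repeats the processed intensity, within 0.5% in all but 4 of 720288 cells. Groups came from the descriptions in the labels.

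Control spots and outlier spots were left out, spots of a probe were averaged, and log2 of the processed signal minus the array's 75th percentile was taken. Probes well above background on every array of 1 or more groups and measured on at least 12 of 16 arrays, 2 of each group and 2 of each slide, were kept (24619), and the brightest stood for each identifier (20145). No spot was saturated. Comparisons used limma 3.58.1 (R 4.3.3), lmFit then eBayes with trend, on all 16 arrays, with Benjamini-Hochberg adjustment over all identifiers and a threshold of 0.05. P-values are two-sided. The slide was a block only in an alternative, whose value stands beside the tests of Cyp19a1, Hsd17b1 and Hsd17b10; arrays of a slide deviated from their group means together (median r = 0.452, lowest 0.224). The number of arrays limits the precision.

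The members, lists and tests were chosen with earlier results of these data known. All members were named; levels on every array were given for Cyp19a1, Hsd17b1 and any member called with or without the slide block, and the 2 identifiers most like each of the first 2 were named. Lists of other steroid pathway genes and of ovarian cell type markers were not analysed here, because no table pairing identifiers with symbols was used. The labelled tissue was therefore not checked against markers other than these enzymes. No sequences were used here. Alternatives covered normalization, background correction, filters, probes, array weights, slides, the groups in the fit, the deposited value table and leaving out each array. A test of each probe, another percentile and the slide block without slide 1 were added after seeing the data. Normexp was fitted on spots not marked as outliers in spot or background, with an offset of 50 intensity units added.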

Additional observations from a re-analysis of the deposited data

Results flagged for a closer look

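In 3 of the 34 groups of 4 arrays examined, 1 array stood apart from the other three by more than Dixon's 95% critical value for the gap over the range; chance alone marks about 1 in 20. They are Hsd17b1 at -3.77 in LD replicate 3 at 3 wk, Hsd17b12 at 3.47 in SD replicate 1 at 3 wk, and Hsd17b10 at 3.92 in SD replicate 1 at 3 wk. Both of the last are on slide 1, the slide with the lowest 75th percentile. The age changes of Cyp19a1 in SD and LD differed by 4.38 (limma adjusted p = 0.074): its photoperiod difference was negative on all 3 measured slides at 3 wk and positive on all 4 at 8 wk.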

How the results depend on the processing

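Of the 5 counts of members called, those between photoperiods and in the LD age change stayed at 0 under every alternative run. The count in the SD age change went from 2 to 1 with normexp, whose offset of 50 intensity units shrinks changes of dim probes such as that of Hsd17b1. It also went to 1 when probes had to be well above background on all 16 arrays. There Hsd17b1 was not tested and the dimmer Cyp19a1 probe stood in. Leaving out 1 array gave a range of 1 to 2, with 1 without SD replicate 2 at 3 wk and without SD replicates 2 or 4 at 8 wk. With slide as a block it was 3, Hsd17b10 being added (limma adjusted p = 0.0483, or 0.0535 without slide 1). In the block fit on all slides 22.6% of identifiers were called and 10.7% rose. For the other alternatives the share of identifiers called was not counted, so their counts of members stand without it. The count in the difference of the age changes went from 0 to 1 with normexp and to 1 with array weights, and leaving out 1 array gave a range of 0 to 1, in each case through Cyp19a1. The SD age change of Cyp19a1 was called in 32 of 32 alternatives, from 1.56 to 4.49, and that of Hsd17b1 in 27 of 31, from 0.48 to 1.17. These counts include the fits without an LD array, where the changes stayed at 4.02 and 1.04 and only the spread could move. Among the fits that left out 1 array, the Hsd17b1 call was lost only for SD arrays. Leaving out 1 array turned signs for the LD age change of Cyp19a1 (range -0.72 to 0.12, the latter without LD replicate 2 at 3 wk) and the 3-wk difference of Hsd17b1 (range -0.15 to 0.15, the latter without LD replicate 3, and 0.03 without SD replicate 2); the cause was not tested. No paired analysis was possible because each array came from a different hamster and the labels link none of them between groups. The slide block accounts only for arrays that shared a slide. The fit on only the groups compared does not apply to the difference of the age changes. Hsd17b1 was close to background and Hsd17b11 mostly under it, which limits both. The 10 h of light for SD at 8 wk rests on 1 of the conflicting fields, and binding of hamster RNA to mouse probes was not tested.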
